A study of Homo sapiens with 12 samples.

Results

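Oxidative phosphorylation subunits are the proteins that build the respiratory complexes I to IV and the ATP synthase, complex V, in the inner mitochondrial membrane. Their genes were chosen by symbol: NDUFA, NDUFB, NDUFC, NDUFS or NDUFV followed by a number, UQCR, SDHA to SDHD, COX4 to COX8, and ATP5. A probe set counted where its annotation gave 1 symbol, and the brightest probe set by the mean over 12 arrays stood for each gene. The rule found 66 of the 11963 genes measured, of which 27 belong to complex I, 3 to complex II, 6 to complex III, 13 to complex IV and 17 to complex V. The symbols also brought in some genes that are not core parts of a complex: the pseudogene ATP5MC2P1, the ATP synthase inhibitor ATP5IF1, the muscle isoforms COX6A2 and COX7A1, and COX7A2L, which helps complexes III and IV to join in supercomplexes.

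Transcripts were measured on 12 arrays of HCC827, a lung adenocarcinoma line driven by mutated EGFR, in 4 groups of 3 arrays. Parental cells were compared with ERC4, a line labelled erlotinib resistant, erlotinib being an inhibitor of the EGFR kinase; both grew in RPMI with 5% FBS. HCC827NT cells (NT), which carry a lentiviral shRNA with no target, were compared with HCC827 Esh9-1 cells (EGFRsh), which carry a lentiviral shRNA against EGFR; both grew in the same medium plus 5 ug/ml puromycin. All groups share the HCC827 background, NT and EGFRsh also share transduction and puromycin, and the labels list no other treatment and do not say whether ERC4 was harvested in erlotinib. ERC4 is 1 resistant line and EGFRsh carries 1 shRNA, so that the results describe these cells. One label field marks all 12 samples as resistant, parental cells included, and the groups therefore follow the titles and descriptions. The labels do not tell whether replicates were separate cultures, so that a p-value here reflects the spread among these arrays alone, part of which may be technical.

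The respiratory chain passes electrons from NADH (complex I) and succinate (complex II) through ubiquinone, complex III and cytochrome c to complex IV, which reduces oxygen. Complexes I, III and IV pump protons across the membrane, and the ATP synthase lets them flow back to make ATP. Most subunits are encoded in the nucleus, and the few encoded in mitochondrial DNA fall outside the rule. In lung adenocarcinoma cells with mutated EGFR, signalling from EGFR is known to drive glycolysis, the other main source of ATP.

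Levels are given as log2(intensity + 1). Array medians ran from 5.67 to 5.75 on this scale in parental and ERC4 and from 7.15 to 7.17 in NT and EGFRsh, so the arrays form 2 sets of unequal scale. Levels were therefore compared within a set, and effects between sets. EGFR itself, the target of the shRNA, was lower in EGFRsh than in NT by 1.30 ± 0.07 on the log2 scale (limma SE, adjusted p = 2e-09). Markers bear on the label only in part: all 8 epithelial markers measured were called lower in both comparisons, and EPCAM, an epithelial adhesion protein, went from 10.29 to 7.65 in ERC4 and from 12.91 to 7.99 in EGFRsh. The summed intensity of the 8 epithelial markers was 19452 to 19724 in parental against 8090 to 8526 in ERC4 arrays, and 59591 to 60713 in NT against 10624 to 11116 in EGFRsh arrays. Leukocyte markers (5 genes) summed to at most 212 (parental and ERC4) and 478 (NT and EGFRsh), endothelial markers (4 genes) to at most 115 and 175, and fibroblast markers (5 genes) to at most 359 and 902; intensities of this kind have no true 0. LUM, a fibroblast proteoglycan, was higher in EGFRsh by 2.56, while the other 4 fibroblast markers were not called there (list median -0.11). The 3′ minus 5′ log2 signal of ACTB, a measure of RNA integrity and labelling, averaged 1.07 in EGFRsh and 0.20 in its NT control, 0.19 in ERC4 and 0.22 in its parental control, and that of GAPDH 0.30, -0.05, -0.08 and 0.06 in the same order. Hybridisation controls, which are added to each sample, averaged 9.04 in ERC4 against 10.67 in parental and 11.54 in EGFRsh against 10.96 in NT arrays.

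Subunit transcripts were higher in EGFRsh than in NT cells across every complex, by a median of 0.33 on the log2 scale (1.26-fold). Of the 66 genes, 45 rose, 4 fell and 17 were not called by limma (adjusted p under 0.05), where the background over all genes was 25.3% higher and 24.6% lower and the median of all genes was -0.02. The share of members was 68.2% higher and 6.06% lower. Most of the genes are bright: 60 lay in the brightest 20% of genes by mean signal and 49 in the brightest 10%. As a whole this brightest 10% had calls higher in 35.3% and lower in 34.4%. Of its 49 members 31 rose and 4 fell (median 0.28), and of its 1148 other genes 392 rose and 408 fell (median -0.00). The arrays of EGFRsh and NT did not overlap for 56 of the 66 members (84.8%), beside 61.3% of all genes and 84.0% of the other genes of the brightest 10%, so this share is near that of equally bright genes. The higher 3′ signal of EGFRsh arrays moves with this result, and its part in it was not tested. In bulk RNA, a change in the share of cells and a change in RNA per cell cannot be told apart.

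In ERC4 against parental cells the same genes were split. By the deposited values 29 rose, 13 fell and 24 were not called (limma, adjusted p under 0.05), beside 28.9% higher and 28.8% lower over all genes, and the median change was 0.12 (all genes -0.04). The arrays of both groups did not overlap for 49 members (74.2%), beside 60.5% of all genes and 78.2% of the other genes of the brightest 10%. Fold changes in this comparison depended on signal: in 5 equal bins of all genes, from the dimmest to the brightest, the medians were -0.14, -0.19, -0.07, 0.18 and 0.21. In the brightest 10%, where calls were higher in 52.0% and lower in 17.4%, 21 of 49 members rose and 11 fell (median 0.13), while of the 1148 other genes 601 rose and 197 fell (median 0.19). After cyclic loess within each set, which removes a trend with signal, 16 members rose and 24 fell (median -0.07), beside 25.8% and 25.4% of all genes; quantile normalization within each set gave 17 and 23 (24.1% and 27.7% of all genes), and over 12 arrays 16 and 23 (25.2% and 29.7%). The direction of the group as a whole in ERC4 thus turned with the scaling, whereas in EGFRsh cyclic loess gave 44 higher and 5 lower (median 0.30). Of the 29 called higher in ERC4, 16 were called higher under all 4 other scalings tried, and 11 of the 13 called lower; in EGFRsh these were 43 of 45 and 4 of 4.

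**Figure D1:**
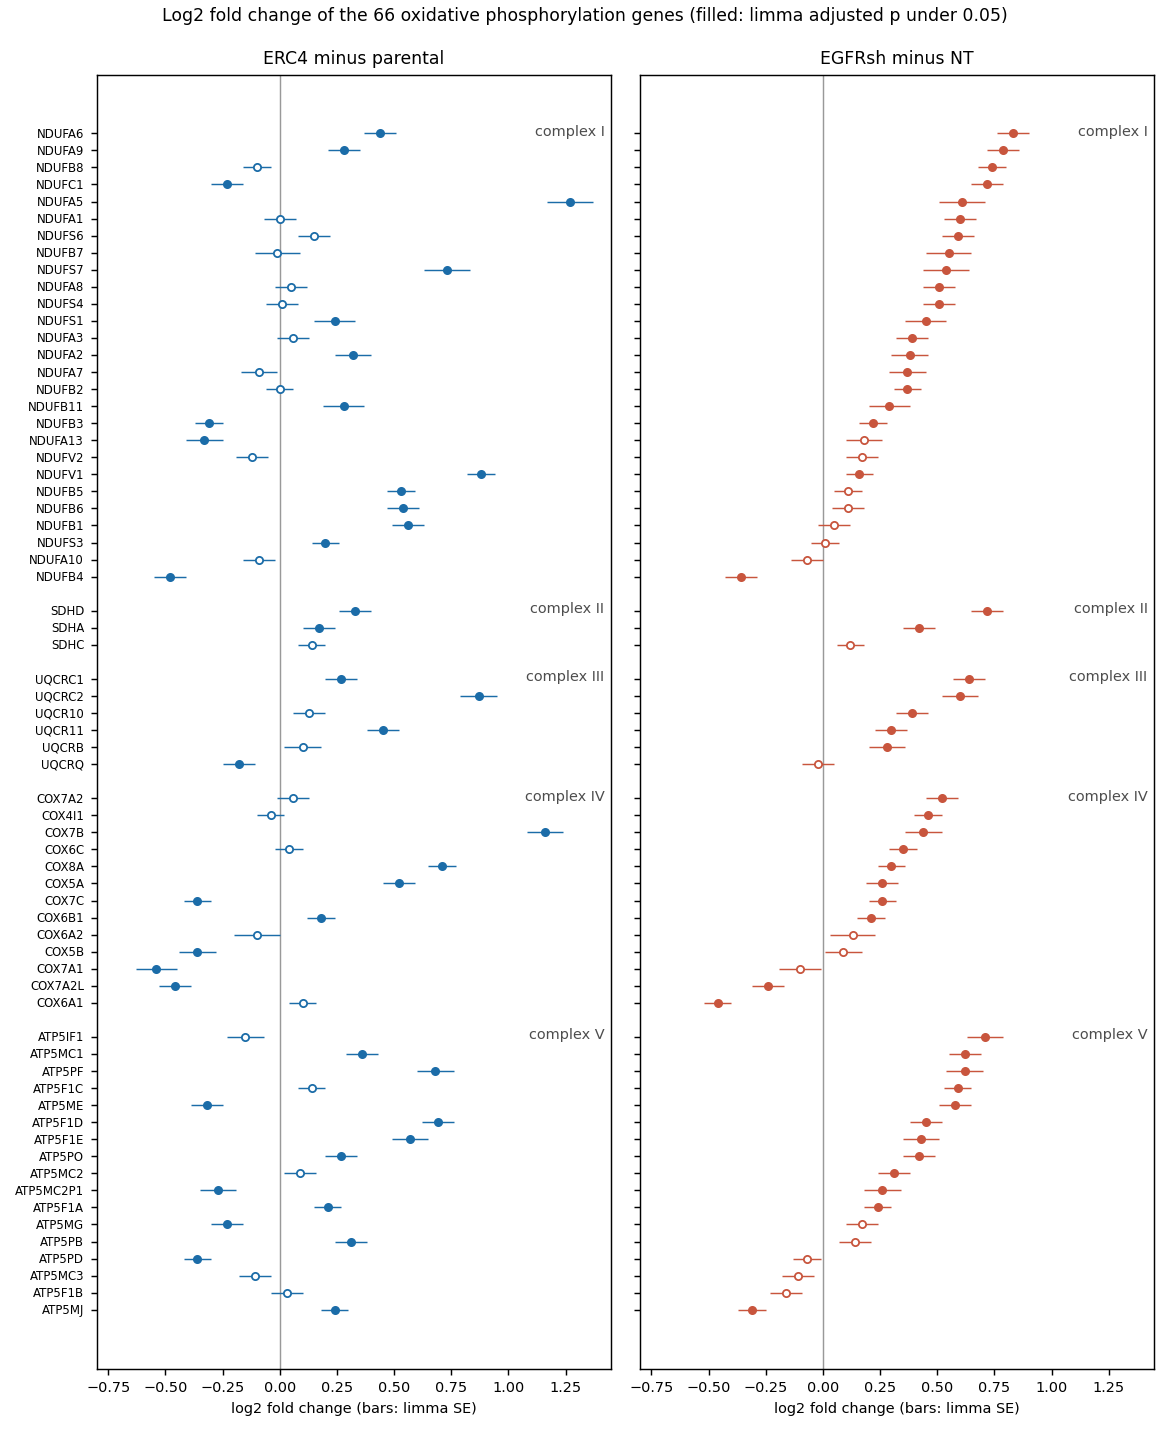
Log2 fold change (horizontal axis) of each of the 66 genes, sorted within its complex by the EGFRsh change, with bars for limma's standard error and filled points for an adjusted p under 0.05. In EGFRsh minus NT (right) 45 filled points lie above 0 and 4 below; in ERC4 minus parental (left) 29 lie above and 13 below by the deposited values, and 16 and 24 after cyclic loess.

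To show the regulatory sequence in front of some of the genes that moved most, promoter windows of 300 bases (250 before and 50 after the annotated start) were read from RefSeq's table for GRCh38.p14, which held a window for 57 of the 66 genes. The 4 printed were chosen after their values were seen: NDUFA6 (chr22:42090723-42091022, minus strand), NDUFB8 (chr10:100529822-100530121, minus strand) and SDHD (chr11:112086623-112086922, plus strand) are among the 5 largest rises in EGFRsh, and ATP5PF (chr21:25735005-25735304, minus strand) rose in both comparisons. Each is given 5′ to 3′ along the gene, with capitals for letters that match a searched motif on either strand.
NDUFA6: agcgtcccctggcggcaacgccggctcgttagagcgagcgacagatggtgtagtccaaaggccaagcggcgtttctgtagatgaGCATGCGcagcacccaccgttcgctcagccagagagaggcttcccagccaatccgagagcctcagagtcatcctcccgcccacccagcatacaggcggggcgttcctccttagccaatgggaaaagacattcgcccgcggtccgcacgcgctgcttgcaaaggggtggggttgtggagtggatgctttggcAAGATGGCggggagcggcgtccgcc
NDUFB8: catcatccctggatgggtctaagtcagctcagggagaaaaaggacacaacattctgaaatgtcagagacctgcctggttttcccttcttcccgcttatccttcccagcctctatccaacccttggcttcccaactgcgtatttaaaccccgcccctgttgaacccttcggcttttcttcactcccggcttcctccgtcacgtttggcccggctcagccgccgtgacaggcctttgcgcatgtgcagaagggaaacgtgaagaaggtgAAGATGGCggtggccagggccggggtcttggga
SDHD: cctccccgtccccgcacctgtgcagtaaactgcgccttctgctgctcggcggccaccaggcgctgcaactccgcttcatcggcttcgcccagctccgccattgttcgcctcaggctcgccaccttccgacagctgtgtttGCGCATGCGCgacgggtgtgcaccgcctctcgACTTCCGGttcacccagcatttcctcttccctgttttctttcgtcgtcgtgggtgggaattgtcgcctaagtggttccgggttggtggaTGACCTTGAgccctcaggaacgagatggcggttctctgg
ATP5PF: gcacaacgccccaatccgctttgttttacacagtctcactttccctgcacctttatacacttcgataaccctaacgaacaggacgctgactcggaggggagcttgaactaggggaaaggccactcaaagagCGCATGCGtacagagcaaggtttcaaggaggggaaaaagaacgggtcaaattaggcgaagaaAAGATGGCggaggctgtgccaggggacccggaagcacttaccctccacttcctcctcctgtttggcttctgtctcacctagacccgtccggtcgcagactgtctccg

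The motifs searched, on both strands, were GCATGCG, the core of the site of NRF1, a factor known to act on many respiratory genes, the full NRF1 site, in which the core follows the letters GC and precedes a C, the site ACTTCCGG of ETS factors such as GABPA, the YY1 site AAGATGGC and the ESRRA site TCAAGGTCA. NDUFA6 holds the NRF1 core and the YY1 letters, SDHD the full NRF1 site, the ETS letters and, on the opposite strand, the ESRRA letters, ATP5PF the NRF1 core on both strands and the YY1 letters, and the NDUFB8 window the YY1 letters. A second annotated window of NDUFB8 held none of the 5, and a second of ATP5PF held the ETS and YY1 letters. Of the 57 genes with a window, 13 (22.8%) held the NRF1 core, beside 4.74% of the 27305 genes with a window and 6.37% of the 974 other genes of the brightest 10%. The full NRF1 site was in 4 (7.02%; 1.52% of all, 2.46% of the brightest) and the ETS letters in 10 (17.5%; 4.95% and 11.6%). The YY1 letters were in 11 (19.3%; 3.52% and 9.55%), and the ESRRA letters in SDHD alone (1.75%; 0.432% and 0%). In EGFRsh 10 of the 13 members with the NRF1 core rose and 2 fell, 6 of the 10 with the ETS letters rose and none fell, and 10 of the 11 with the YY1 letters rose and none fell, beside 68.2% and 6.06% of all members and 25.3% and 24.6% of all genes; differences between these shares were not tested. NDUFB4, which fell in both comparisons, also held the full NRF1 site. A match describes the letters and is no evidence that a factor binds there.

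Complex I takes electrons from NADH and is built of core subunits, some of which carry the flavin and the iron-sulfur clusters, and of accessory subunits around them. In EGFRsh 19 of its 27 genes rose and 1 fell (median 0.38). In ERC4 12 rose and 4 fell by the deposited values (median 0.06), and after cyclic loess 7 rose and 12 fell (median -0.07).

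Among the core subunits, all in the brightest 20% of genes, 4 of 5 rose in ERC4 and 3 of 5 in EGFRsh. Of that 20% of genes, 54.1% and 34.9% were called higher. NDUFV1, which binds NADH and the flavin, had log2 levels of 9.49, 9.57 and 9.44 in the parental and 10.32, 10.39 and 10.44 in the ERC4 arrays. Every ERC4 array lay above every parental array, and the rise was 0.88 ± 0.06 (1.84-fold, limma adjusted p = 3.6e-08). In EGFRsh its rise was 0.16 ± 0.06 (adjusted p = 0.046), from 11.72, 11.68 and 11.74 to 11.90, 11.88 and 11.85, a call lost under each of the 4 other scalings (0.12 to 0.13) and without any 1 of the 6 arrays compared. NDUFS7, a core subunit with an iron-sulfur cluster close to the ubiquinone site, measured 7.72, 7.94 and 7.97 in parental and 8.60, 8.53 and 8.69 in ERC4, without overlap. Its rise was 0.73 ± 0.10 in ERC4 (limma adjusted p = 1.9e-05) and 0.54 ± 0.10 in EGFRsh (adjusted p = 0.00028). NDUFS1, the largest core subunit, rose by 0.24 in ERC4, where the groups overlapped, and by 0.45 in EGFRsh, while NDUFS3 rose by 0.20 in ERC4 and was not called in EGFRsh (0.01), a difference that was not called by limma's interaction term (0.19, adjusted p = 0.1); the ERC4 calls of NDUFS1 and NDUFS3 were lost after cyclic loess (0.03 and -0.03).

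The accessory subunits held both the largest rise of the whole group in ERC4, by brightest probe sets, and one of its few shared falls. NDUFA5, a subunit of the arm that takes in NADH, had log2 levels of 5.55, 5.82 and 5.65 in parental and 6.75, 7.09 and 6.99 in ERC4. It is among the dimmer members, no ERC4 array came near the parental ones, and the rise was 1.27 ± 0.10 (2.41-fold, limma adjusted p = 1.2e-07), 1.30 after cyclic loess. A much dimmer NDUFA5 probe set, at 3.45 in parental, gave -0.08 with no call in either comparison, and the mean of both gave rises of 0.59 in ERC4 and 0.27 in EGFRsh, with COX7B then the largest rise in ERC4. In EGFRsh the brighter NDUFA5 probe set rose by 0.61 ± 0.10, from 9.17, 8.91 and 8.88 to 9.57, 9.58 and 9.64 (adjusted p = 0.00013). NDUFB4, a membrane arm subunit, went the other way in both. It measured 10.55, 10.66 and 10.68 in parental and 10.13, 10.21 and 10.12 in ERC4, and 12.37, 12.24 and 12.40 in NT against a mean of 11.97 ± 0.03 (SD, n = 3) in EGFRsh. The groups did not overlap in either set, and NDUFB4 fell by 0.48 ± 0.07 in ERC4 (limma adjusted p = 3e-05) and by 0.36 ± 0.07 in EGFRsh (adjusted p = 0.0003).

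The largest rises in EGFRsh were in accessory subunits too. NDUFA6, which lies where the arms of the complex meet, had log2 levels of 10.61, 10.76 and 10.71 in NT and 11.57, 11.50 and 11.51 in EGFRsh. This was the highest change among the 66 genes there, 0.83 ± 0.07 (1.78-fold, limma adjusted p = 1.4e-07), and in ERC4 it rose by 0.44 ± 0.07, from 8.85, 8.90 and 8.73 to 9.18, 9.29 and 9.31. With the mean of its probe sets NDUFA6 rose by 0.60 and 0.24, and NDUFA9 was then the highest in EGFRsh. NDUFA9, a subunit near the ubiquinone site, went from 10.72, 10.82 and 10.92 in NT to 11.62, 11.58 and 11.63 in EGFRsh, again without overlap, a rise of 0.79 ± 0.07 (adjusted p = 1.6e-07). In ERC4 NDUFA9 rose by 0.28 ± 0.07, which cyclic loess took to 0.06 with no call. NDUFB8, another membrane arm subunit, measured 10.90, 10.90 and 11.02 in NT and 11.77, 11.63 and 11.65 in EGFRsh, a rise of 0.74 ± 0.06 (limma adjusted p = 1.7e-07), and was not called in ERC4 (-0.10 ± 0.06). Its other probe sets disagree: one gave 0.15 in EGFRsh with no call and a dimmer one was called lower (-0.25), so the size of the NDUFB8 change depends on the probe set, with a rise of 0.22 by their mean.

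NDUFC1 and NDUFB3, both of the membrane arm, changed in opposite directions. NDUFC1 had log2 levels of 9.66, 9.56 and 9.70 in parental and 9.34, 9.49 and 9.40 in ERC4, and 11.77, 11.78 and 11.72 in EGFRsh against a mean of 11.04 ± 0.10 (SD, n = 3) in NT. ERC4 arrays lay below all parental arrays and EGFRsh arrays above all NT arrays, so that NDUFC1 fell by 0.23 ± 0.07 in ERC4 (limma adjusted p = 0.013) and rose by 0.72 ± 0.07 in EGFRsh (adjusted p = 8e-07). The ERC4 call of NDUFC1 was lost without ERC4 replicate 1 (-0.20). For NDUFB3 the same comparison gave a fall of 0.31 ± 0.06 and a rise of 0.22 ± 0.06. In EGFRsh 5 more members of complex I rose by over 0.50 and were not called in ERC4: NDUFA1 (0.60), NDUFS6 (0.59), NDUFB7 (0.55), NDUFA8 (0.51) and NDUFS4 (0.51), named after their values were seen. In ERC4 cyclic loess called NDUFA1 (-0.19), NDUFA8 (-0.18) and NDUFS4 (-0.21) lower.

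**Figure D2:**
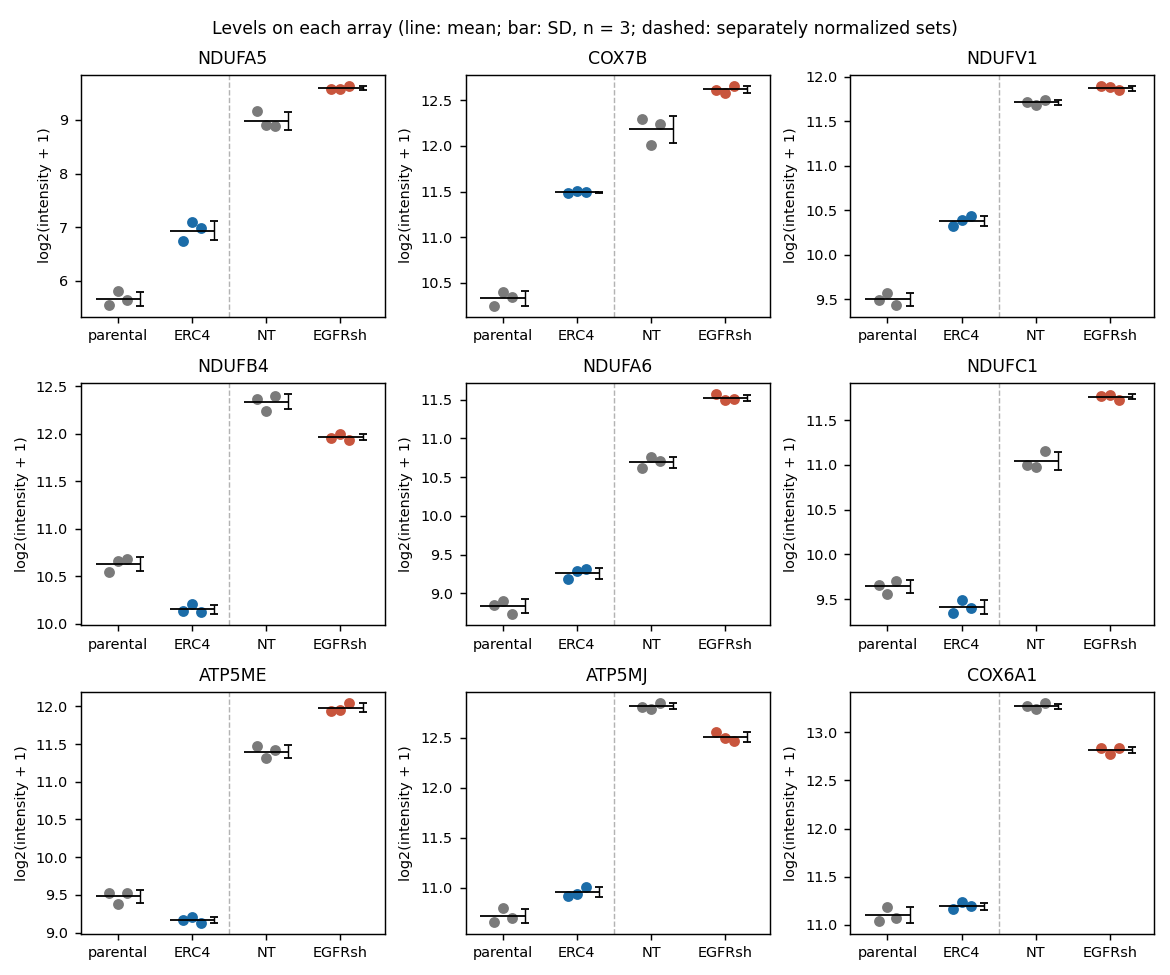
Level of 9 genes on each array, as log2(intensity + 1), with the mean (line) and SD (bar, n = 3) of each group; the dashed line parts the separately scaled sets, and vertical axes differ and do not start at 0. NDUFA5, COX7B and NDUFV1 lie clearly higher in ERC4, NDUFB4 is lower in both comparisons, NDUFC1 and ATP5ME are lower in ERC4 and higher in EGFRsh, and ATP5MJ is the reverse by its brightest probe set.

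Complex II, succinate dehydrogenase, was measured by 3 of its genes. SDHD, a membrane anchor subunit, had log2 levels of 6.89, 6.96 and 6.98 in parental and 7.18, 7.34 and 7.29 in ERC4, and 9.75, 9.68 and 9.71 in NT and 10.33, 10.49 and 10.50 in EGFRsh. Groups did not overlap, and SDHD rose by 0.33 ± 0.07 in ERC4 (limma adjusted p = 0.0011) and by 0.72 ± 0.07 in EGFRsh (adjusted p = 5.8e-07). A much dimmer SDHD probe set was called slightly lower in EGFRsh (-0.20), and the mean of both lost the ERC4 call. SDHA, the catalytic flavoprotein, rose by 0.17 in ERC4, a call lost after cyclic loess (-0.06), and by 0.42 in EGFRsh. SDHC, the other membrane anchor measured, had no call from its brightest probe set (0.14 and 0.12). Its 4 probe sets did not move together: in EGFRsh one was called lower (-0.40) and another higher (0.58), while these were called higher in ERC4 (0.51 and 0.67).

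In complex III, which hands electrons to cytochrome c, 5 of 6 genes rose in EGFRsh and none fell (median 0.34). In ERC4 3 rose and 1 fell (median 0.20), and 2 rose and 1 fell after cyclic loess (median -0.01). UQCRC2, a core subunit, had log2 levels of 7.29, 7.55 and 7.38 in parental and 8.33, 8.27 and 8.23 in ERC4, and 9.80, 9.99 and 9.94 in NT and 10.52, 10.52 and 10.51 in EGFRsh. No arrays overlapped, and UQCRC2 rose by 0.87 ± 0.08 in ERC4 (limma adjusted p = 3.1e-07) and by 0.60 ± 0.08 in EGFRsh (adjusted p = 1e-05). A second UQCRC2 probe set, nearly as bright (7.35 against 7.41 in parental), gave rises of 0.83 in ERC4 and 0.19 in EGFRsh. With the mean of both, UQCRC2 rose by 0.85 and 0.40. Its partner UQCRC1, the other core subunit, rose by 0.27 in ERC4 (0.05 and no call after cyclic loess) and by 0.64 in EGFRsh. UQCRQ, a small subunit, was the only member of the complex called lower in ERC4 (-0.18), with -0.02 in EGFRsh.

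Complex IV, cytochrome c oxidase, reduces oxygen, and its catalytic subunits come from mitochondrial DNA; the genes measured encode the surrounding nuclear subunits, some with tissue isoforms. It was the most divided complex in ERC4, where 4 of 13 rose and 4 fell (median 0.04; 3 and 6 after cyclic loess, median -0.14). In EGFRsh 8 rose and 2 fell (median 0.26). COX7B, a small membrane subunit, had log2 levels of 10.25, 10.40 and 10.35 in parental and 11.48, 11.51 and 11.49 in ERC4. Its ERC4 arrays lay more than 1 log2 unit above every parental array, a rise of 1.16 ± 0.08 (2.23-fold, limma adjusted p = 1.8e-08), and in EGFRsh it rose by 0.44 ± 0.08, from 12.29, 12.01 and 12.24 to 12.61, 12.58 and 12.66. COX8A, the ubiquitous isoform of subunit VIII, rose by 0.71 ± 0.06 in ERC4, from 11.28, 11.17 and 11.24 to 11.94, 11.98 and 11.91 (adjusted p = 4.4e-07), and by 0.30 ± 0.06 in EGFRsh.

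The falls of complex IV in ERC4 came in several of its subunits. COX5B, which lies on the matrix side and binds zinc, measured 9.91, 10.14 and 10.10 in parental and 9.69, 9.69 and 9.68 in ERC4, below all parental arrays. It fell by 0.36 ± 0.08 (limma adjusted p = 0.0011), and its other 3 probe sets were called lower as well (-0.27, -0.52 and -1.36). In EGFRsh the brightest COX5B probe set was not called (0.09) and the latter ones of these were called higher (0.23 and 0.72). COX7C, a small membrane subunit, had log2 levels of 11.20, 11.14 and 11.17 in parental and 10.83, 10.75 and 10.83 in ERC4, and 12.85, 12.73 and 12.86 in NT and 13.12, 13.05 and 13.05 in EGFRsh. It therefore fell by 0.36 ± 0.06 in ERC4 (limma adjusted p = 0.00023) and rose by 0.26 ± 0.06 in EGFRsh (adjusted p = 0.003), with no overlap in either set. COX7A2L, the supercomplex factor, fell in both: by 0.46 ± 0.07 in ERC4, from 9.30, 9.43 and 9.49 to 8.97, 8.99 and 8.89, and by 0.24 ± 0.07 in EGFRsh, from 11.34, 11.42 and 11.42 to 11.20, 11.13 and 11.13.

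Isoforms of one subunit were compared within each gene. COX6A1, the ubiquitous form of subunit VIa, was the lowest of the 66 in EGFRsh, at 12.84, 12.78 and 12.84 against 13.27, 13.24 and 13.31 in NT. It fell by 0.46 ± 0.06 without overlap (limma adjusted p = 2.3e-05), and was not called in ERC4 (0.10 ± 0.06). Its muscle form COX6A2 was dim, at 5.48 to 6.01 over all arrays, and called in neither comparison (-0.10 and 0.13). COX7A2, the ubiquitous form of subunit VIIa, rose by 0.52 ± 0.07 in EGFRsh and was not called in ERC4 (0.06). The muscle form COX7A1 fell in ERC4 by 0.54 ± 0.09, from 5.50, 5.19 and 5.35 to 4.92, 4.64 and 4.86 (limma adjusted p = 0.0002), and was not called in EGFRsh (-0.10). Of 5 dim striated muscle markers, 3 were called lower in ERC4 (list median -0.34), and 2 after cyclic loess (-0.19). In the dimmest bin of signal and the next, 30.8% and 43.5% of all genes were called lower in ERC4. COX4I1, the ubiquitous form of subunit IV, rose by 0.46 ± 0.06 in EGFRsh (-0.04 and no call in ERC4). COX6B1, which caps the complex on the side of cytochrome c, rose by 0.21 in EGFRsh, a call lost without NT replicate 3 or EGFRsh replicate 1, and by 0.18 in ERC4, where cyclic loess gave -0.03 with no call.

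Complex V, the ATP synthase, joins the catalytic F1 head to the membrane ring by central and peripheral stalks. In EGFRsh 11 of its 17 genes rose and 1 fell (median 0.31), and in ERC4 8 rose and 4 fell (median 0.14; 3 and 5 after cyclic loess, median -0.09). Of the F1 head genes, all in the brightest 20% of genes, 3 of 5 rose in ERC4 and 4 of 5 in EGFRsh. Of that 20% of genes, 54.1% and 34.9% were called higher. Among these F1 genes ATP5F1A rose by 0.21 in ERC4, a call kept under 1 of the 4 other scalings (0.04 after cyclic loess). ATP5F1B, which encodes the catalytic beta subunit, was called in neither (0.03 and -0.16). ATP5F1D, the delta subunit of the central stalk, rose by 0.69 ± 0.07 in ERC4, from 8.70, 8.66 and 8.74 to 9.35, 9.35 and 9.47 (limma adjusted p = 1.3e-06), and by 0.45 in EGFRsh. A second ATP5F1D probe set, nearly as bright (8.39 against 8.70 in parental), gave 0.21 with no call in ERC4 (limma adjusted p = 0.052) and a rise of 0.56 in EGFRsh. ATP5F1E, the epsilon subunit, rose by 0.57 and 0.43. ATP5PF, coupling factor 6 of the peripheral stalk, had log2 levels of 8.71, 9.05 and 8.84 in parental and 9.49, 9.58 and 9.57 in ERC4, and 11.12, 11.05 and 11.17 in NT and 11.71, 11.75 and 11.74 in EGFRsh. It rose by 0.68 ± 0.08 in ERC4 and by 0.62 ± 0.08 in EGFRsh (limma adjusted p = 6.3e-06 and 1.2e-05), while ATP5PD, subunit d of the same stalk, fell by 0.36 ± 0.06 in ERC4 and was not called in EGFRsh (-0.07). ATP5F1D, ATP5F1E and ATP5PF were singled out after their values were seen.

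The small membrane subunits around the ring and the inhibitor gave wide contrasts between the comparisons. ATP5ME, subunit e, which takes part in pairing of ATP synthases, had log2 levels of 9.53, 9.38 and 9.53 in parental against 9.17, 9.20 and 9.13 in ERC4, and 11.48, 11.31 and 11.42 in NT and 11.94, 11.95 and 12.05 in EGFRsh. ERC4 lay below parental and EGFRsh above NT without overlap, a fall of 0.32 ± 0.07 (limma adjusted p = 0.0015) and a rise of 0.58 ± 0.07 (adjusted p = 6e-06). ATP5MJ, the 6.8PL membrane subunit, was the one member with the opposite pattern by brightest probe sets. Its levels were 10.66, 10.80 and 10.70 in parental and 10.92, 10.94 and 11.01 in ERC4, and 12.81, 12.79 and 12.85 in NT and 12.56, 12.50 and 12.47 in EGFRsh. ATP5MJ rose by 0.24 ± 0.06 in ERC4 (limma adjusted p = 0.0054; 0.06 with no call after cyclic loess) and fell by 0.31 ± 0.06 in EGFRsh (adjusted p = 0.00085), and its dimmer probe set gave 0.18 with no call in EGFRsh. With the mean of both probe sets the EGFRsh change of ATP5MJ was -0.06 with no call, so its fall rests on the brighter one. ATP5IF1, which blocks ATP hydrolysis by the synthase, had log2 levels of 9.77, 9.82 and 9.96 in NT and 10.53, 10.71 and 10.43 in EGFRsh. It rose there by 0.71 ± 0.08 (limma adjusted p = 4.9e-06), and was not called in ERC4 by the deposited values (-0.15 ± 0.08), where the quantile and loess scalings called it lower. The pseudogene ATP5MC2P1, whose sequence resembles that of the ring subunit gene ATP5MC2, was called lower in ERC4 (-0.27; no call under both quantile normalizations and cyclic loess, as small as -0.12, or without ERC4 replicate 1) and higher in EGFRsh (0.26; no call under quantile normalization over 12 arrays or without EGFRsh replicate 2), and its signal may include that of near-identical sequences.

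Both comparisons called 23 members higher (34.8%, beside 13.4% of all genes and 22.6% of the other genes of the brightest 10%) and 2 lower (NDUFB4 and COX7A2L; 3.03%, beside 8.80% and 9.76%). In 5 the calls were lower in ERC4 and higher in EGFRsh (NDUFC1, ATP5ME, NDUFB3, COX7C and ATP5MC2P1; 7.58%, beside 3.25% and 3.83%) and in 1 the reverse (ATP5MJ; 1.52%, beside 6.40% and 13.3%). These counts hold for the deposited values, and their ERC4 part depends on the scaling. Under all 4 other scalings 16 of the 29 members called higher in ERC4 kept that call, and 43 of the 45 in EGFRsh. A call in EGFRsh with none in ERC4 was found for 17 members higher (25.8%, beside 8.56% and 7.67%) and 1 lower. A call in ERC4 with none in EGFRsh was found for 5 higher and 6 lower, and no call in either for 6. For these counts other than the 17, the share over all genes was not computed, so they are not read as a result about the members. Such pairs of calls do not test a difference. The comparisons share no arrays; across the 66 genes their log2 changes had a Pearson r of 0.32 and a Spearman rho of 0.31, and across all 11963 genes 0.37 and 0.28, as a description only since genes are not independent. Beside 47.8% higher and 19.1% lower among the brightest 10%, and 25.5% and 24.1% over all genes, the difference of effects, tested by an interaction term, was lower (a smaller or more negative change in ERC4) for 32 members and higher for 10 (limma, adjusted p under 0.05). Its median was -0.22 for members and 0.22 for the 1148 other genes of the brightest 10%. Of the 22 accessory subunits of complex I, 14 were called lower and 4 higher by this term (median -0.42). The sets differ in spread, with a mean SD of log2 values of 1.85 (parental and ERC4) and 2.21 (NT and EGFRsh), so the size of these differences rests on their scales.

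Genes that serve the same complexes were described from lists of other functions. Their counts are read beside the bins of signal: in ERC4 54.1% of the brightest 20% of genes and 47.9% of the next 20% were called higher (16.2% and 18.8% lower), and in EGFRsh 34.9% and 34.5% (33.6% and 30.4% lower). Assembly factors, which insert cofactors and join subunits, rose in 16 of 29 (55.2%) and fell in 3 in ERC4 (median 0.28; 13 and 5 after cyclic loess), and rose in 10 (34.5%) and fell in 6 in EGFRsh (median -0.04). With 23 of the 29 in these bright bins, both shares of higher calls are near the background. COX11 and COX15, which deliver copper and make heme for complex IV, rose in ERC4 by 1.17 ± 0.10 and 1.05 ± 0.08, and were not called in EGFRsh (0.15 and -0.04). COA4, another complex IV factor, rose by 0.96 and 0.47, and NDUFAF4, a complex I factor, by 0.64 and 0.66. LRPPRC, which stabilises mitochondrial mRNAs, rose by 0.29 in ERC4 (0.06 to 0.35 over all alternatives, with the call lost under both quantile normalizations and cyclic loess) and fell by 0.59 in EGFRsh.

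Regulators of mitochondrial biogenesis, 10 of 17 in these bright bins, rose in 13 (76.5%) and fell in 1 in ERC4 (median 0.37; 11 and 1 after cyclic loess), and in EGFRsh 3 rose (17.6%) and 6 fell (median 0.01). By the interaction term, the ERC4 effect minus the EGFRsh effect was called higher for 12 of the 17 (70.6%) and lower for 1. After cyclic loess these were 9 and 0. Backgrounds were 25.5% and 24.1% of all genes, 48.0% and 17.6% of the brightest 20%, and 40.4% and 21.1% of the next 20%. A higher difference can come from a rise in ERC4 or from a fall in EGFRsh. POLRMT, the mitochondrial RNA polymerase, rose by 1.13 ± 0.08 in ERC4 (limma adjusted p = 3.9e-08) with 0.20 and no call in EGFRsh, and TFB2M, its initiation factor, by 0.75 (0.15 and no call in EGFRsh). NRF1, the factor whose motif was searched above, was not called in ERC4 (0.02) and fell by 0.65 ± 0.11 in EGFRsh. Over all alternatives the NRF1 change in EGFRsh ran from -0.74 to -0.16, with the call kept. The NRF1 difference of effects lost its call with the mean of its probe sets (0.11 at the lowest). GABPA, the ETS factor, was not called in ERC4 by the deposited values (0.14) and fell by 0.49 ± 0.09 in EGFRsh. In ERC4 GABPA was called higher under both quantile normalizations and cyclic loess, up to 0.31, and without parental replicate 2. MTERF3, also among the 3 largest called changes of this list in EGFRsh, rose there, by 0.53 to 0.64 over all alternatives with the call kept. Its change in ERC4 ran from 0.41 to 0.65. The coactivator PPARGC1A rose in ERC4 by 0.73 at a dim level (3.68 to 4.41).

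Among the carriers next to the complexes, CYCS, cytochrome c itself, rose by 0.58 in ERC4 and 0.39 in EGFRsh. CYC1, the cytochrome c1 of complex III, rose by 0.23 in ERC4 (-0.01 after either quantile normalization) and by 0.47 in EGFRsh. The flavoproteins that feed electrons from fatty acid oxidation split: ETFB and the dim ETFDH fell in ERC4 (-0.31 and -0.26) and rose in EGFRsh (0.41 and 0.83), and ETFA rose in ERC4 (0.31) and fell in EGFRsh (-0.30). The ERC4 calls of ETFA and ETFDH were lost under the quantile and loess scalings, and that of ETFDH also without parental replicate 1 or 2 or ERC4 replicate 1 or 3.

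Other parts of the mitochondrion gave a further comparison. Mitochondrial ribosomal protein genes, 48 of 51 in the bright bins, rose in 33 (64.7%) and fell in 4 in ERC4 (median 0.24). After cyclic loess 16 rose and 7 fell there. MRPL48 was up by 1.27 and MRPL9 by 0.92. In EGFRsh 13 rose and 11 fell (median -0.01), and 10 rose and 16 fell after cyclic loess. MRPL52 was up by 1.15 there and MRPL42 down (-0.74). Of 16 genes of the import machinery, 14 of them in the bright bins, 10 rose (62.5%) and 1 fell in ERC4 (median 0.38; 9 and 2 after cyclic loess), and 8 rose and 1 fell in EGFRsh (median 0.28; 8 and 3 after cyclic loess); TOMM20, the outer membrane receptor, rose by 0.66 and 0.52, and TIMM17A, of the inner membrane channel, by 0.50 and 0.67. TOMM70 of the same machinery rose in ERC4 (0.40 to 0.70 over all alternatives) and fell in EGFRsh (-0.38 to -0.18). Its EGFRsh call was lost at an adjusted p under 0.01 and without NT replicate 1 or EGFRsh replicate 1. Of 55 cytosolic ribosomal protein genes, 10 were higher and 12 lower in ERC4 (9 and 27 after cyclic loess). In EGFRsh 18 were higher and 6 lower (median 0.06). Their largest change was that of RPS27L, up by 1.88 and 1.72. Of 33 proteasome genes, 14 rose in each comparison and 5 and 6 fell (10 higher and 10 lower in ERC4 after cyclic loess). Differences between the lists were not tested.

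**Figure D3:**
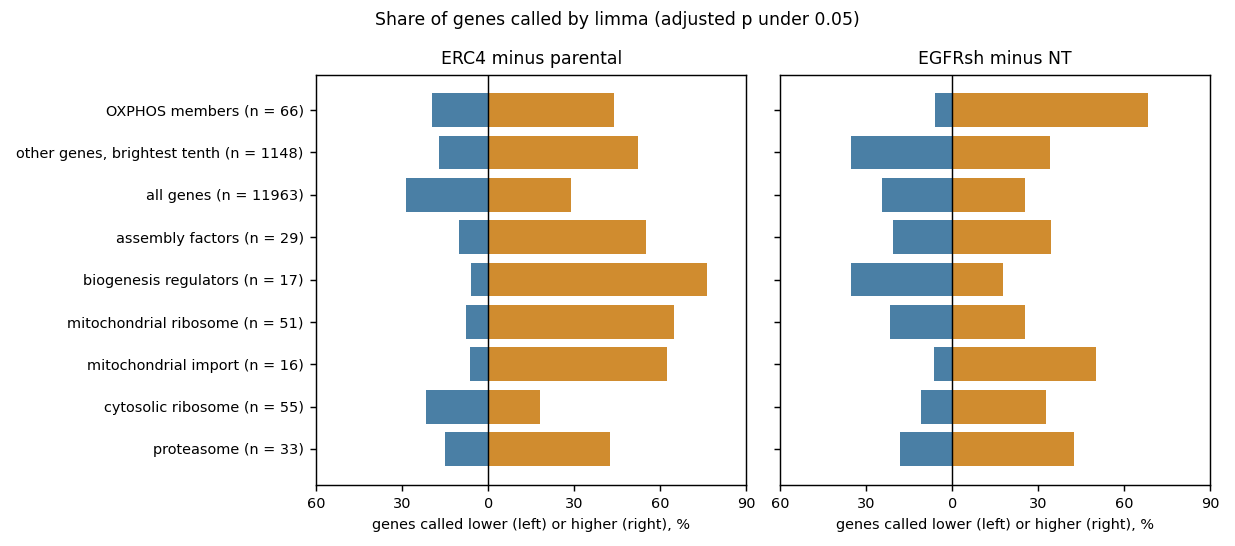
Share of genes called higher (right of 0) or lower (left of 0) by limma in each list, in percent, with the number of genes in brackets; these are the deposited values, before any other scaling. In EGFRsh 68.2% of the subunit genes were called higher and 6.06% lower, beside 34.1% and 35.5% of the other genes of the brightest 10%; in ERC4 the shares were 43.9% and 19.7%, beside 52.4% and 17.2%.

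Several members are read by probe sets that can detect more than their own transcript. Of the 66 probe sets, 29 have the plain suffix of a unique design, 28 are shared within a gene family or among transcripts and 9 are of the kind that may cross-hybridise, among them those of COX7C, ATP5ME, COX4I1, COX5B, SDHA and SDHC. The 29 genes with a plain probe set gave 19 higher and 2 lower in EGFRsh, and 11 higher and 5 lower in ERC4. For 21 members several probe sets were present, and 33 of these were not the brightest. Tested on their own, 18 of the 33 were called higher and 3 lower in EGFRsh, beside 24.3% and 25.0% of all 19070 probe sets with 1 symbol, and 7 higher and 9 lower in ERC4, beside 27.3% and 27.9%. In ERC4 no member's probe sets were called against each other, and in EGFRsh those of NDUFB8, SDHC and SDHD were.

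**Figure D4:**
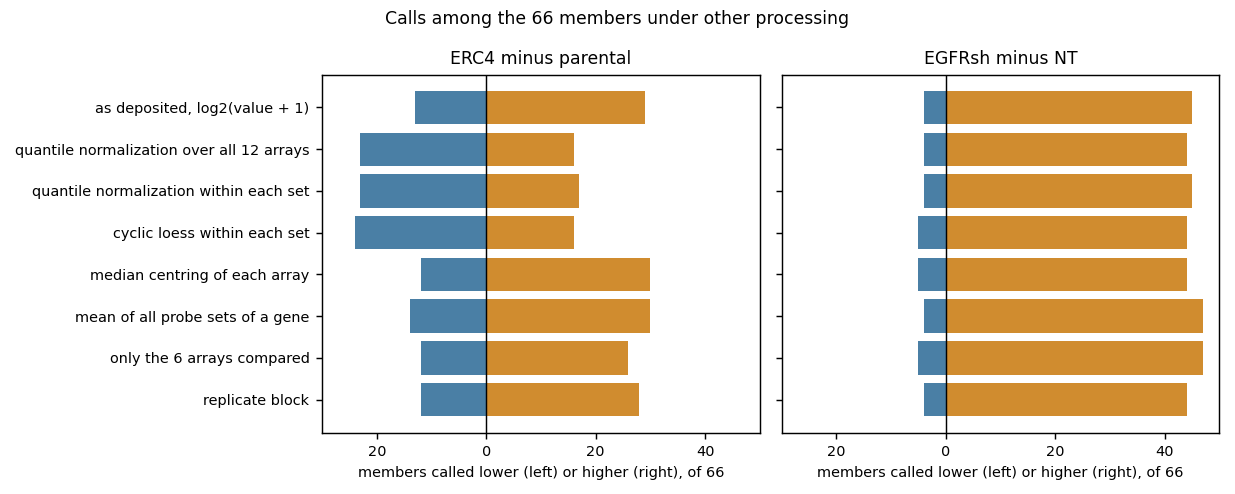
Number of the 66 genes called higher (right of 0) or lower (left of 0) under the deposited values and 7 other ways of processing them. In EGFRsh minus NT every bar keeps 44 to 47 higher and 4 or 5 lower, while in ERC4 minus parental both quantile normalizations and cyclic loess turn 29 higher and 13 lower into 16 or 17 higher and 23 or 24 lower.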

How the data were processed

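Per the submitters' processing notes the authors used RMA to make the deposited intensities, which are linear and cover 22277 probe sets; the RMA version and the grouping of arrays in that step were not given in the sources read. In the platform annotation 19070 probe sets had 1 gene symbol, 1043 several and 2164 none; the brightest probe set with 1 symbol stood for each of 11963 genes. After log2(value + 1), which understates changes of dim genes, limma 3.58.1 (R 4.3.3; lmFit, then eBayes, on all 12 arrays with 4 group means, leaving 8 residual degrees of freedom) tested every gene, two-sided, with Benjamini-Hochberg adjustment over all of them; errors are limma's SE. The steps were first tested on simulated data. Precision is limited by having 3 arrays a group, for which an exact permutation test cannot go below 0.1. Replicates of a group correlated at 0.9923 or above and no arrays were identical.

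The members and all lists were chosen with earlier results of these data known. Genes named by rule are the 5 highest and 5 lowest called members of each comparison, members called in opposite directions or with disagreeing probe sets, isoforms, ATP5IF1 and up to 3 called genes with the largest change per other list. Other members given with values lie outside this rule and were named with the values known, whether or not the text says so there. Among them are NDUFS1, NDUFS3, SDHA, UQCRC1, UQCRQ and ATP5F1B. Alternatives were a replicate block, the 6 compared arrays alone, trend and robust variance, 4 other scalings, stretching the first set to the spread of the second, no pseudocount, leaving out dim genes, averaging a gene's probe sets, a stricter threshold (0.01) and omitting each array in turn. Testing every probe set and the comparison with the brightest 10% of genes were added after seeing the data. Replicate numbers do not pair the samples: deviations of same-numbered arrays correlated at 0.00 to 0.07 in parental and ERC4 and at -0.12 to -0.02 in NT and EGFRsh. Promoters come from RefSeq's GRCh38.p14 table. Figures were drawn with matplotlib 3.10.9.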

Additional observations from a re-analysis of the deposited data

Results flagged for a closer look

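Of the 28 members named by rule, 21 had effects that differed between the comparisons by limma's interaction term, with an adjusted p under 0.05; values are the ERC4 effect minus the EGFRsh effect on the log2 scale. Calls of the difference were lower for 24.1% and higher for 25.5% of all genes, and these members were named for their changes, so the number is a description.

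Of complex I, the difference was -0.95 for NDUFC1 (adjusted p = 2.6e-06), -0.84 for NDUFB8 (2.9e-06; -0.27 with the mean of its probe sets), -0.54 for NDUFB3 (0.00019), -0.51 for NDUFA9 (0.00046) and -0.40 for NDUFA6 (0.0042), and it was positive for NDUFA5 at 0.66 (0.0016; 0.33 with the mean of its probe sets) and NDUFV1 at 0.72 (1.1e-05). SDHD of complex II gave -0.40 (limma adjusted p = 0.004), reduced to no call with the mean of its probe sets (-0.18).

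Of complex IV, the difference was -0.62 for COX7C (limma adjusted p = 4.8e-05), -0.50 for COX4I1 (0.00017), -0.45 for COX5B (0.0035), -0.45 for COX7A2 (0.0021) and -0.44 for the dim COX7A1 (0.012). It was positive for COX8A at 0.41 (0.002; no call after quantile normalization over 12 arrays, 0.19), COX6A1 at 0.55 (0.00013) and COX7B at 0.72 (7.6e-05).

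Of complex V, the difference was -0.89 for ATP5ME (limma adjusted p = 3.9e-06), -0.86 for the inhibitor ATP5IF1 (3e-05), -0.53 for the pseudogene ATP5MC2P1 (0.0013) and -0.29 for ATP5PD (0.017; no call after median centring, -0.24), and it was 0.54 for ATP5MJ (0.00016; 0.31 with the mean of its probe sets).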

How the results depend on the processing

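In EGFRsh minus NT the members called higher numbered 42 to 47 and those called lower 4 or 5 when each array was left out in turn (46 to 51 called), and their median change less that of all genes, 0.35 by the deposited values, was 0.33 to 0.40; it was 0.31 after cyclic loess and 0.30 with the mean of probe sets. In ERC4 minus parental, leaving out arrays gave 24 to 28 higher and 10 to 13 lower (36 to 41 called) and a median less that of all genes of 0.13 to 0.18 (0.16 with all arrays). Quantile normalization over 12 arrays, quantile normalization within each set and cyclic loess gave 16, 17 and 16 higher and 23, 23 and 24 lower, and this median turned to -0.03, -0.03 and -0.06; with only genes at or above the median signal it was -0.03, since dim genes are then out of the reference. Quantile methods and loess remove the trend of change with signal by construction. For the difference of effects, leaving out arrays gave 9 to 11 higher and 28 to 32 lower (37 to 42 called) and a median less that of all genes of -0.25 to -0.16. That median was -0.38 after both quantile normalizations and after loess and -0.37 without dim genes, and quantile normalization over 12 arrays left 6 members higher.

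Against the other genes of the brightest 10%, the members' median was 0.25 to 0.31 higher in EGFRsh, and lay between -0.08 and -0.04 in ERC4 and between -0.44 and -0.38 for the difference, when arrays were left out. For the difference it was -0.47 with the first set stretched, a step that enlarges every ERC4 change by construction. With the replicate number as a block, 40 members were called in ERC4 (28 higher, 12 lower), 48 in EGFRsh (44 and 4) and 40 for the difference (10 and 30). Named genes that had a call and changed sign in ERC4 were COX6B1 (-0.00, -0.01 and -0.03 under both quantile normalizations and loess), CYC1 (-0.01 and -0.01 under the quantile normalizations) and PSMB10 (-0.03 and -0.03 under the same), and SDHC gave a called difference of -0.22 after quantile normalization within sets; the cause was not tested. Over all named genes and alternatives, 4408 values kept the call or its absence, of which 50, in 19 genes, turned in sign with no call on either side; 103 lost the call, 80 gained one and 8 changed sign with a call. Of all members in ERC4, 3 called higher (COX6B1, NDUFS3 and SDHA) and 14 of the 24 not called, among them COX6A1, COX7A2, NDUFA8 and SDHC, had the other sign after cyclic loess. The signal over background is not in the values, so the dim COX6A2, COX7A1 and PPARGC1A may lie near it.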

Other observations

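Genes on either side of a member, up to 5 in each direction in the RefSeq order of the genes measured, were looked at as a description. Around NDUFV1 and NDUFA5, which rose most with COX7B in ERC4, the neighbours' median changes there were -0.13 and -0.11, and around COX7B 0.33. Over all 66 members 22.7% of the 655 pairs of a member and a neighbour had a neighbour called higher in EGFRsh, beside 25.3% of all genes. A gene near several members counts in several pairs. In EGFRsh the 10 neighbours of NDUFC1 had a median of 0.60, with 6 called higher, those of COX7C 0.48, and those of ATP5MJ, which fell, -0.80 with none called higher. Those of the largest risers there gave other values, -0.07 for NDUFA6 (none called higher), 0.09 for NDUFA9 and -0.04 for NDUFB8. These members were picked after the values of all 66 were seen, and no test was made.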
